A study of Mus musculus with 40 samples.

Results

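Imprinted genes are transcribed from 1 parental allele. Here 35 of them were followed through the wild-type (WT) and clonal knockout (KO) mouse embryonic stem cells (mESCs) of this experiment. They were listed by symbol, with no measured value in the rule, and all 35 were found among the 55536 genes of the count tables. The mESCs, which carried intact Atm, were WT, in 2 replicates, or clones D1, G2 and H5 of a Ccnc KO or B9, H4 and C8 of a Cdk8 KO, and were grown on gelatin. Ccnc encodes Cyclin C and Cdk8 its partner kinase, both of the Mediator kinase module. Each WT replicate or KO clone, called a line below, was given DMSO or 900 nM AZD6738, an inhibitor of the checkpoint kinase ATR (ATRi), for 4 h. Its polyadenylated RNA was sequenced. Every KO clone is 1 line grown from a single cell, and 3 clones stand for each KO genotype. The study names the WT samples biological replicates and does not say that they were cloned. An effect of knockout and one of single-cell cloning therefore cannot be told apart here. The same 4 WT libraries were sequenced with the Ccnc KO libraries in 1 multiplex and with the Cdk8 KO libraries in another, so WT values below belong to the multiplex named.

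For many imprinted genes, which allele is expressed depends on DNA methylation laid down in the egg or the sperm. The zinc finger protein ZFP57 with its cofactor TRIM28 keeps these marks through early development. Many imprinted genes lie in clusters under 1 methylated control region, so that neighbours of opposite parental origin are switched in opposite directions, Igf2 and H19 being the textbook case. Cultured mESCs are known to lose or gain such marks, and lines from 1 parental culture can differ in them. The counts used here do not separate the alleles and no methylation was measured, so the values below are total levels of each gene.

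Levels are counts per 1000000 counts of the library (CPM), with TMM normalization within a multiplex. Library totals lay between 30899823 and 67274049 counts. A gene was called between clones or between genotypes at an adjusted p (Benjamini-Hochberg, over all genes tested by edgeR's quasi-likelihood test) under 0.05 with a fold above 2. Of the 35 genes, 32 passed the expression filter in each multiplex, and Airn, Dlk1 and Rtl1 did not. Ccnc stood at 4.24 to 7.40 CPM in the Ccnc KO libraries and 39.6 to 45.1 CPM in WT. Cdk8 stood at 52.3 to 64.6 CPM in the Cdk8 KO libraries and 57.7 to 78.6 CPM in WT, so the ranges of Cdk8 overlapped, through the ATRi library of WT replicate 2, and the Cdk8 level is no check of the Cdk8 KO labels. The study left that library out, and it was left out of every test here, while its values are printed. The WT libraries gave nearly the same levels in both multiplexes, the median absolute difference being 0.06 on the log2 scale over the 30 genes with at least 1 CPM. In each list of values below, WT is given as replicates 1 and 2 under DMSO and then under ATRi, and a clone as DMSO and then ATRi.

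Sequences that bear on the genes described below were taken from RefSeq (GRCm38.p6). H19 is the primary transcript of miR-675, whose mature arms are shown with the seed, bases 2 to 8, in capitals because H19 differed most between the clones. The miRNAs themselves were not measured.
miR-675-5p: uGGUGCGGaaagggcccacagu
miR-675-3p: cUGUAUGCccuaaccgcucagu

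The promoter windows shown next, from 250 bases before to 50 bases after a transcript's start, belong to genes that differed between clones, and capitals mark TGCCGC, the hexamer that ZFP57 binds when methylated, or its reverse complement GCGGCA. They are Mest at chr6:30737800-30738099 on the plus strand, Nnat at chr2:157559828-157560127 on the plus strand, Grb10 at chr11:12037371-12037670 on the minus strand and Peg3 at chr7:6730370-6730669 on the minus strand. Peg3 and Usp29 start 146 bases apart on opposite strands and their windows share 263 bases, so 1 window is given for both.
Mest: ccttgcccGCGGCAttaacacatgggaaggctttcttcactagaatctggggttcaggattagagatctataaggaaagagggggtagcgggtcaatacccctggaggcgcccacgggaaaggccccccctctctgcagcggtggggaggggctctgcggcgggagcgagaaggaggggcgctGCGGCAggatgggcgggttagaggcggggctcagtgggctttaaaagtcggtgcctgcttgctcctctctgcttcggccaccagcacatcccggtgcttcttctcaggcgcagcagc
Nnat: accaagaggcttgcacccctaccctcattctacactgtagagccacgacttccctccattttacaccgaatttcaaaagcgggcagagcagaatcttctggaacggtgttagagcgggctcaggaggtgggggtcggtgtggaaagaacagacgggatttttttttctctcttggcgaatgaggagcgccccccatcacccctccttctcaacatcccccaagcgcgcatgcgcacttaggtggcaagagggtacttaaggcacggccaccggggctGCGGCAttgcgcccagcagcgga
Grb10: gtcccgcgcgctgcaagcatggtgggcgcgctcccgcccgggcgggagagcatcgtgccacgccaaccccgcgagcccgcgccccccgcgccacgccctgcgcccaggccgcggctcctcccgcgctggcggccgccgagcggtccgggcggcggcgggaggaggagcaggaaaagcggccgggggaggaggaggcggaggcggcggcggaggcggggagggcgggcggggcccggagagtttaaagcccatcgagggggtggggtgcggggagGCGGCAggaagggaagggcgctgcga
Peg3: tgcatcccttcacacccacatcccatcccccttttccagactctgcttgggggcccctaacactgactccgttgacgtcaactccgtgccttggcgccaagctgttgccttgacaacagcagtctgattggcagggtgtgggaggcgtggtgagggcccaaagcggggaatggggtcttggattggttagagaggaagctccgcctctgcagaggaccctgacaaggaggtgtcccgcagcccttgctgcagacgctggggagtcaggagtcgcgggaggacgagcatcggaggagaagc

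The Mest window held the hexamer at 2 places and 17 CpG dinucleotides, the Nnat window 1 and 17, and the Grb10 window 1 and 45. Mest has 3 windows and Grb10 2, and those with the hexamer are shown. The other Grb10 window (9 CpG) and a Mest window upstream (8 CpG) hold none. The Peg3 window held 13 CpG and no TGCCGC on either strand. Windows are described for 28 of the 35 genes, 43 in all, of which 10 held the hexamer (23.3%), against 11.6% of all 32851 mouse promoter windows of this length. Windows overlap, and 2 of the 10 are Mest windows that start 3 bases apart. The median CpG number was 12 for the imprinted genes and 7 for all. Cdkn1c, H19, Impact, Nespas, Peg10, Rtl1 and Sgce had no window shown.

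In WT cells under DMSO the imprinted genes spanned a wide range of levels per kilobase of exon. Mest, a hydrolase-like protein of mesoderm, and Snrpn, a splicing protein, were highest at 92.3 and 92.2 CPM per kb (mean of the 2 replicates over both multiplexes), and their ranges overlapped. Slc38a4, an amino acid transporter, at 57.4, Impact, a regulator of translation, at 47.3 and Peg10, a retrotransposon-derived gene needed for the placenta, at 40.5 CPM per kb followed, each range clear of the next. H19 was in the middle of the order at 5.78 CPM per kb, with a range that overlapped that of Peg3 at 6.27 and lay above that of Ndn at 4.63. At the low end were Igf2 at 0.054, Usp29 at 0.053 and Kcnq1ot1 at 0.025 CPM per kb. Dlk1, with 1 to 6 counts in these libraries, and Airn, with 0 to 2 counts, were near the detection limit, and Rtl1 had 0 counts in all 20 libraries, where 3 counts would be 0.05 to 0.10 CPM.

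H19 had the largest difference between clones of the 32 genes tested in both knockouts, and genes of other imprinted domains differed with it in the Cdk8 KO. In the Ccnc KO clones 2 of the 32 genes tested were called for a difference between clones (H19 and Mest), where 0.215% of all genes tested were called. In the Cdk8 KO clones 9 of the 32 were called (H19, Igf2, Sgce, Peg10, Grb10, Ascl2, Usp29, Nnat and Magel2), where 6.05% of all genes were called. The median difference between the highest and the lowest clone was 0.24 on the log2 scale for the imprinted genes and 0.21 for all genes in the Ccnc KO, and 0.50 against 0.29 in the Cdk8 KO. The WT replicates, compared by the same fit, gave 0 calls among the 32 genes in either multiplex (5 and 7 at an unadjusted p under 0.05), where 0% of all genes were called beside the Ccnc KO and 0.112% beside the Cdk8 KO. WT replicate 2 entered with its DMSO library alone, and 1 pair was compared rather than the highest and lowest of 3 clones. The WT samples are also not described as separate clones, so they do not show how far clones differ without a knockout. The WT counts are therefore not a like comparison with those of the clones. A WT difference as large as 1.72 (log2, Cdk8 multiplex) was not called. The clone tests take the DMSO and ATRi libraries of a clone as its 2 measurements, so they speak of these clones and not of knockout clones in general.

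**Figure D1:**
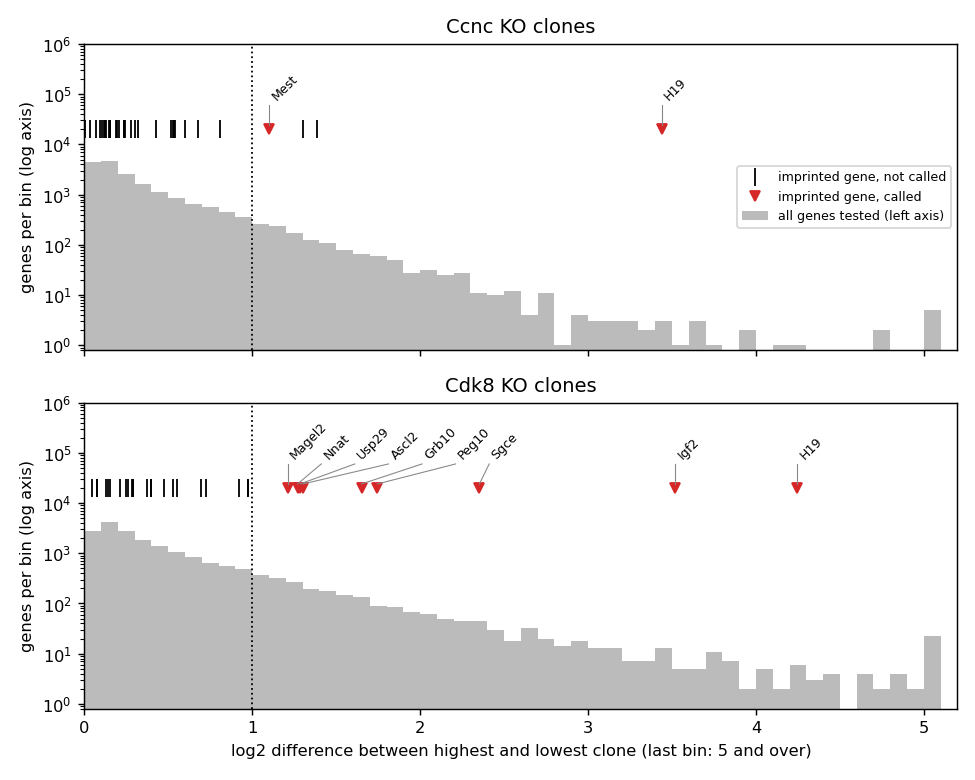
Difference between the highest and the lowest of the 3 KO clones on the log2 scale, for all genes tested (grey bars, number of genes on a log axis) and for the 32 imprinted genes (marks placed at 1 arbitrary height), with the 2-fold limit dotted. H19 lies far to the right in both knockouts, at 3.44 and 4.25, and 9 imprinted genes were called in the Cdk8 KO against 2 in the Ccnc KO.

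H19, the maternally expressed noncoding RNA of the Igf2 domain (chr7:142575529-142578143, minus strand), ranged from 25.1% to 271% of the WT mean among the Ccnc KO clones and from 13.7% to 260.4% among the Cdk8 KO clones (WT replicate 2 under ATRi left out of the mean). In the Ccnc multiplex it stood at 14.6, 15.2, 13.6 and 22.3 CPM in WT, at 3.89 and 3.37 CPM in D1, 10.8 and 9.13 CPM in G2 and 38.7 and 39.6 CPM in H5. D1 and G2 were below and H5 above every WT library, and the 2 libraries of each clone lay close together. The difference between H5 and D1 was 3.44 on the log2 scale (edgeR, adjusted p = 2.08e-08). Against WT, H19 fell by 1.98 ± 0.12 (log2, SE) in D1 and rose by 1.46 ± 0.10 in H5, both called, with adjusted p = 2.04e-06 and 2.23e-06 by edgeR. In G2 the value was -0.52 ± 0.11 (edgeR, adjusted p = 0.0080), short of 2-fold.

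In the Cdk8 multiplex H19 stood at 13.8, 13.2, 12.5 and 21.7 CPM in WT, at 18.2 and 21.3 CPM in B9, 1.77 and 1.83 CPM in H4 and 33.7 and 34.8 CPM in C8. H4 was the lowest line of the whole experiment, and C8 was above every WT library. The difference between C8 and H4 was 4.25 (log2, edgeR, adjusted p = 5.81e-12). H19 fell by 2.88 ± 0.12 in H4 and rose by 1.36 ± 0.08 in C8 against WT (log2, SE, edgeR, adjusted p = 2.44e-10 and 3.62e-08). Each genotype thus held a clone with little H19 and a clone well above WT, and the genotype effect was not called in either (log2 0.32 ± 0.62 SE in Ccnc KO and 0.49 ± 0.83 SE in Cdk8 KO).

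Igf2, the paternally expressed fetal growth factor of the same domain, was scarce but highest in the very clones that were lowest in H19. It stood at 0.28, 0.385, 0.271 and 0.611 CPM in WT of the Ccnc multiplex, at 1.13 and 1.10 CPM in D1, 0.378 and 0.465 CPM in G2 and 0.6 and 0.699 CPM in H5. D1 was above every WT library, while G2 and H5 overlapped WT. In the Cdk8 multiplex it stood at 0.124, 0.456, 0.176 and 0.625 CPM in WT, at 0.33 and 0.27 CPM in B9, 3.29 and 3.66 CPM in H4 and 0.446 and 0.71 CPM in C8. H4 alone was clear of every other library, with 126 and 166 counts where the WT libraries had 6 to 20. Against WT, Igf2 rose in D1 by 1.74 ± 0.31, in H4 by 3.66 ± 0.26 and in C8 by 1.13 ± 0.34 (log2, SE, edgeR, adjusted p = 0.0041, 5.19e-08 and 0.028). In C8, where H19 and Igf2 were both above the WT mean, 1 of the 2 Igf2 values lay among those of WT. The Igf2 value is uncertain in size, since 62.8% of its exon bases also belong to the readthrough gene Gm49394 on the same strand, and reads in them may be assigned to neither. Gm49394 itself had 0 or 1 count in every library.

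**Figure D2:**
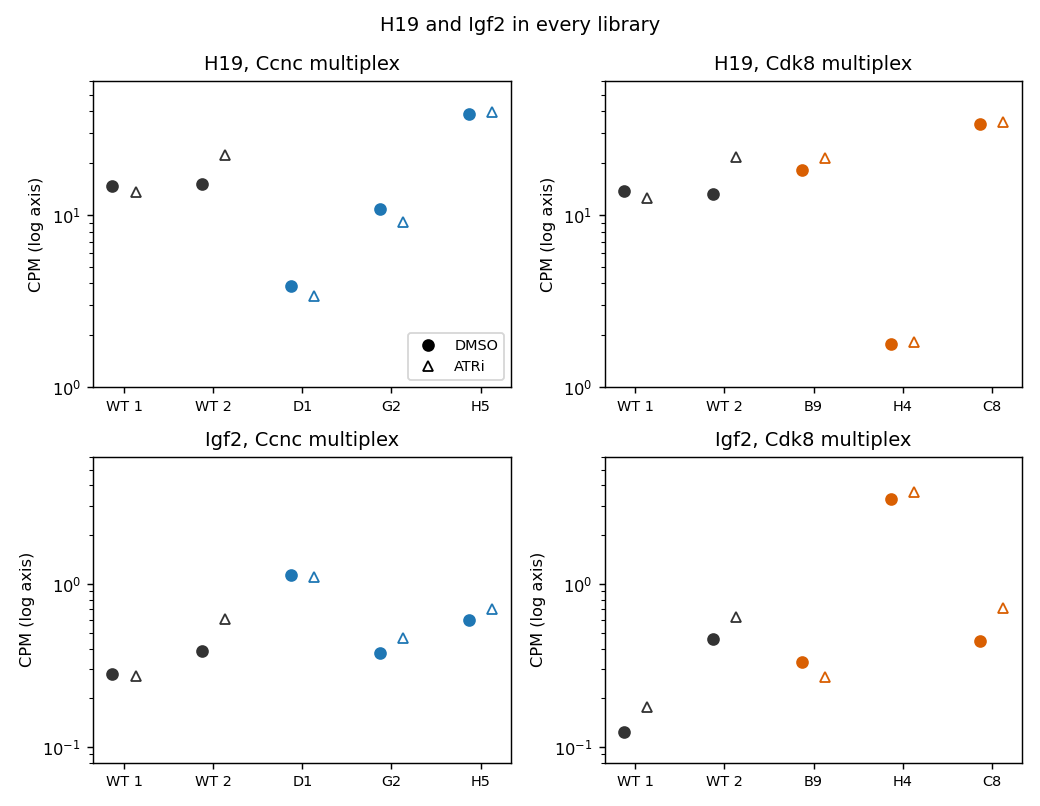
H19 and Igf2 in CPM (log axes) in each library of both multiplexes, DMSO as filled circles and ATRi as open triangles, WT in grey, Ccnc KO in blue and Cdk8 KO in orange. D1 and H4 have the lowest H19 and the highest Igf2 of their multiplex, and H5 and C8 the highest H19.

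Mest, paternally expressed from chr6:30723547-30748465, was the other gene called among the Ccnc KO clones. It stood at 369, 357, 367 and 426 CPM in WT, at 448 and 392 CPM in D1, 419 and 404 CPM in G2 and 199 and 192 CPM in H5. H5 was at 53.6% of the WT mean and below every other library, and the difference between D1 and H5 was 1.10 (log2, edgeR, adjusted p = 1.99e-05). Against WT, Mest in H5 was lower by less than 2-fold (log2 -0.87 ± 0.07 SE, edgeR, adjusted p = 8.89e-06). In the Cdk8 multiplex the 3 clones spanned 346 to 427 CPM and WT 358 to 437 CPM. Copg2, the neighbour that ends within Mest on the opposite strand, stood at 71.7, 70.8, 67.1 and 51.6 CPM in WT, at 68.1 and 63.4 CPM in D1, 69.3 and 69.9 CPM in G2 and 75.5 and 74.8 CPM in H5. Copg2 in H5 was not lower with Mest: it was above every WT library. The median of all genes on chromosome 6 in H5 was 0.05 above WT DMSO on the log2 scale. Without H5, H19 alone stayed called in the Ccnc KO (2 clones left; 1 of 32, where 0.0111% of all genes were called).

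Peg10 and Sgce, 2 paternally expressed genes that start 98 bases apart on opposite strands of chromosome 6, rose together in H4. Peg10 stood at 271, 275, 319 and 276 CPM in WT, at 221 and 193 CPM in B9, 652 and 745 CPM in H4 and 266 and 319 CPM in C8. Sgce, which encodes a sarcoglycan of the muscle and brain membrane complex, stood at 4.85, 7.02, 4.20 and 6.56 CPM in WT, at 3.30 and 2.95 CPM in B9, 17.7 and 14.4 CPM in H4 and 3.72 and 4.02 CPM in C8. For both genes H4 was above all other libraries and B9 below every WT library. Against WT, Peg10 rose by 1.26 ± 0.08 and Sgce by 1.54 ± 0.11 in H4 (log2, SE, edgeR, adjusted p = 7.64e-09 and 3.87e-08). Among the Ccnc KO clones Peg10 spanned 179 to 283 CPM and Sgce 2.79 to 5.99 CPM, with WT at 267 to 313 and 4.59 to 7.69 CPM, and neither was called.

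Grb10, a growth-restraining adaptor of insulin signalling with maternal expression in most tissues, and Nnat, a paternally expressed membrane proteolipid, rose in H4 too. Grb10 stood at 17.3, 17.5, 15.9 and 19.7 CPM in WT, at 11.4 and 11.1 CPM in B9, 35.3 and 35.4 CPM in H4 and 18.6 and 21.8 CPM in C8. Nnat stood at 18.7, 15.0, 20.5 and 21.6 CPM in WT, at 15.4 and 17.9 CPM in B9, 37.8 and 42.5 CPM in H4 and 25.1 and 23.0 CPM in C8. H4 exceeded every WT library in both, by 1.05 ± 0.08 for Grb10 and 1.20 ± 0.08 for Nnat on the log2 scale (SE, edgeR, adjusted p = 1.01e-07 and 1.93e-08). B9 was below every WT library for Grb10. In the Ccnc multiplex Grb10 stood at 9.21 to 15.2 CPM in the 3 clones, below the 16.6 to 19.4 CPM of WT, and was not called.

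Ascl2, a maternally expressed transcription factor of the trophoblast, was the called gene of the Kcnq1ot1 domain. It stood at 1.16, 1.00, 0.904 and 1.56 CPM in WT, at 1.26 and 0.705 CPM in B9, 2.84 and 1.98 CPM in H4 and 1.27 and 1.12 CPM in C8. It rose in H4 by 1.35 ± 0.21 against WT (log2, SE, edgeR, adjusted p = 0.00016). The other genes of the domain did not follow it. Cdkn1c, a cell cycle inhibitor, stood at 7.88, 7.60, 9.19 and 10.9 CPM in WT, at 6.34 and 9.01 CPM in B9, 6.99 and 8.80 CPM in H4 and 8.37 and 11.5 CPM in C8. Phlda2, a restraint on placental growth, stood at 16.0, 13.5, 15.5 and 24.0 CPM in WT, at 15.9 and 17.7 CPM in B9, 13.7 and 13.9 CPM in H4 and 18.1 and 14.5 CPM in C8. In both, the 3 clones overlapped WT. Kcnq1ot1, the paternal noncoding RNA that silences this domain, stood at 1.82, 2.25, 1.83 and 4.47 CPM in WT, at 1.48 and 1.93 CPM in B9, 1.70 and 1.90 CPM in H4 and 1.24 and 2.81 CPM in C8. Slc22a18, a transporter, stood at 1.38, 1.34, 1.38 and 1.19 CPM in WT, at 1.98 and 1.51 CPM in B9, 1.36 and 1.10 CPM in H4 and 1.11 and 0.982 CPM in C8. Tssc4 stood at 45.3, 43.7, 45.4 and 39.5 CPM in WT, at 41.9 and 45.1 CPM in B9, 44.9 and 46.7 CPM in H4 and 41.7 and 46.2 CPM in C8. None of these 5 neighbours was called, and B9 was the clone with the highest Slc22a18.

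Usp29 and Peg3 share the divergent start shown above. Usp29, a deubiquitinase gene, stood at 1.05, 0.882, 0.703 and 1.25 CPM in WT, at 0.412 and 0.498 CPM in B9, 1.15 and 1.08 CPM in H4 and 0.732 and 0.861 CPM in C8. B9 was below every other library, with 20 and 24 counts, while H4 overlapped WT. The call between clones (1.29 on the log2 scale, edgeR, adjusted p = 0.013) was lost with DESeq2, with WT replicate 2 under ATRi included (adjusted p = 0.051), and without B9 or H4. Peg3, a paternally expressed zinc finger protein, stood at 83.1, 85.5, 132 and 120.0 CPM in WT, at 67.2 and 93.5 CPM in B9, 136 and 178 CPM in H4 and 84.8 and 121 CPM in C8. Its clones kept the same order, B9 lowest and H4 highest under each treatment, with a difference of 0.97 (log2, edgeR, adjusted p = 2.79e-08), just short of 2-fold. Zim1, the maternally expressed neighbour, stood at 0.949, 1.12, 1.51 and 1.22 CPM in WT, at 1.11 and 0.768 CPM in B9, 1.33 and 1.01 CPM in H4 and 0.955 and 0.831 CPM in C8, and was not called.

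Magel2, of the Prader-Willi region, was called for its low level in B9. It stood at 1.07, 1.43, 1.23 and 1.56 CPM in WT, at 0.535 and 0.726 CPM in B9, 1.25 and 1.68 CPM in H4 and 1.15 and 1.66 CPM in C8. B9 was below every other library, and fell by 1.13 ± 0.23 against WT (log2, SE, edgeR, adjusted p = 0.0039). The paternally expressed genes around it were not called. Snrpn stood at 213, 188, 210.0 and 251 CPM in WT, at 196 and 193 CPM in B9, 176 and 186 CPM in H4 and 199 and 200.3 CPM in C8, and 27.3% of its exon bases are shared with genes on the same strand. Ndn, the neural growth suppressor necdin, stood at 16.2, 18.7, 15.8 and 18.8 CPM in WT, at 13.2 and 13.8 CPM in B9, 16.7 and 17.1 CPM in H4 and 13.5 and 12.3 CPM in C8. Ndn in B9 and C8 was below every WT library, and in H4 it was not. Peg12 stood at 3.59, 4.16, 3.54 and 4.44 CPM in WT, at 2.92 and 3.49 CPM in B9, 5.42 and 7.19 CPM in H4 and 3.34 and 3.58 CPM in C8. Mkrn3, a ubiquitin ligase gene, stood at 7.76, 7.93, 7.89 and 6.22 CPM in WT, at 6.84 and 7.76 CPM in B9, 6.39 and 6.84 CPM in H4 and 6.21 and 5.83 CPM in C8. Of these neighbours Peg12 was above every WT library in H4, and its range over clones of 0.98 (log2, edgeR, adjusted p = 7.85e-05) was short of 2-fold.

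**Figure D3:**
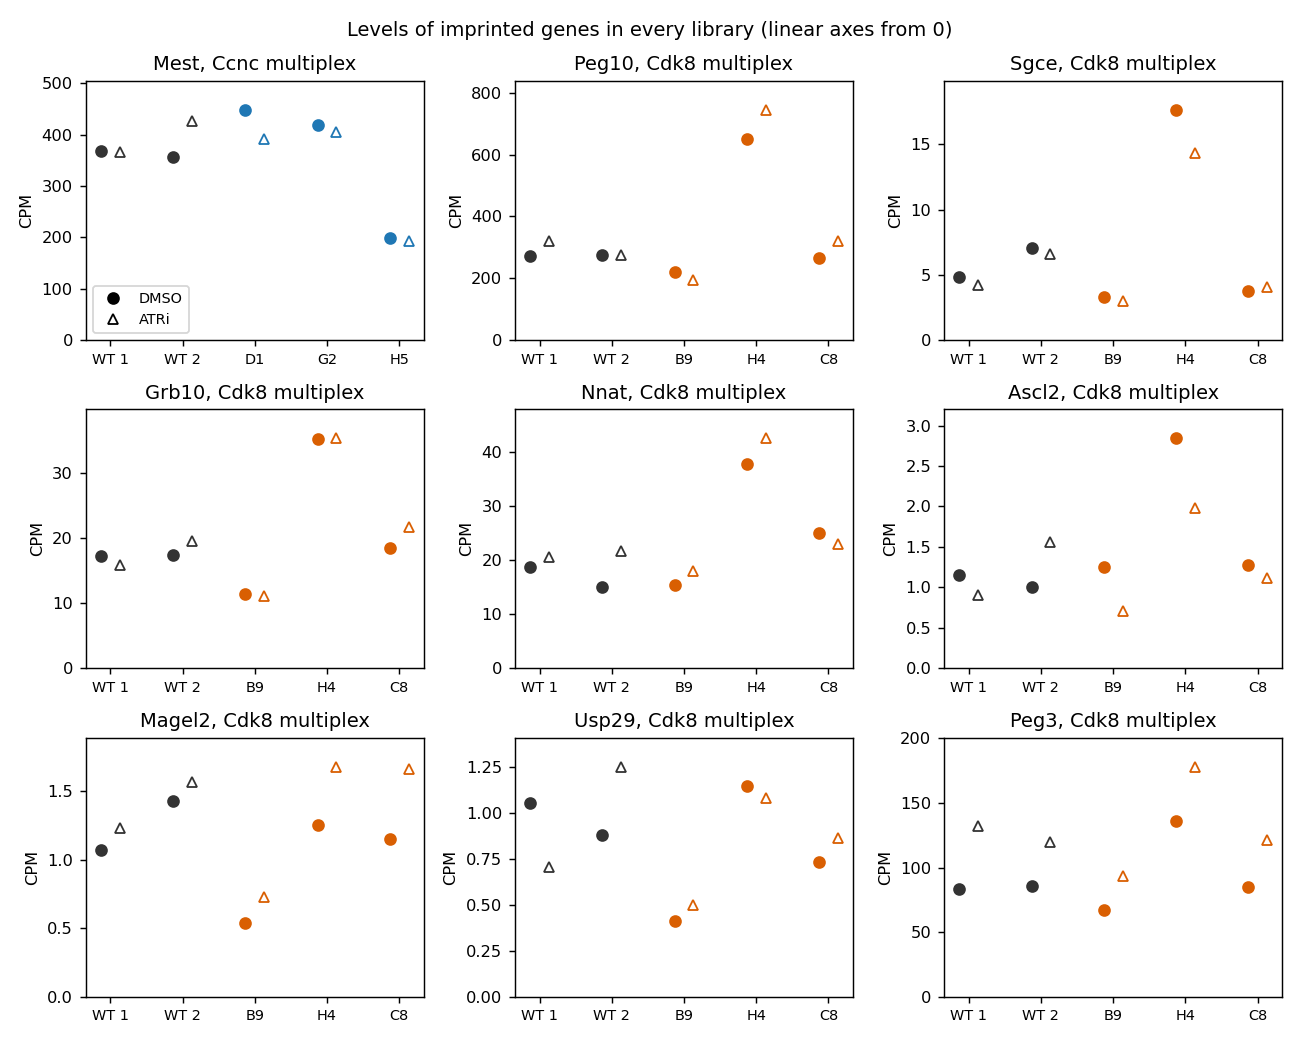
Levels in CPM (linear axes from 0) of Mest in the Ccnc multiplex and of 8 genes in the Cdk8 multiplex, DMSO as filled circles and ATRi as open triangles. Mest is low in H5 only, Peg10, Sgce, Grb10, Nnat and Ascl2 are high in H4, and Magel2 and Usp29 are low in B9.

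Clone H4 held an extreme level of all 9 called genes in the Cdk8 KO, as it did of most genes called between these clones. It was the highest clone for 8 of the 9 called genes, and B9 was the lowest for the same 8, H19 being the exception, lowest in H4. Of all 1132 genes called between these clones, H4 was highest in 72.5% and lowest in 24.1%, and B9 was lowest in 65.7%. At an adjusted p under 0.05 with no fold limit, 21 of the 32 genes differed between the Cdk8 KO clones (30.1% of all genes did), and H4 was highest in 17 (49.8% of all genes at that threshold). Without H4, 1 of the 32 genes (Magel2) was called between B9 and C8, where 0.624% of all genes were called. H19 then differed by 0.79 (log2, edgeR, adjusted p = 9.42e-05). Without B9, 4 genes (H19, Igf2, Peg10 and Sgce) were called between H4 and C8, where 2.95% of all genes were.

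Tested clone by clone against WT, a comparison added after the clone differences had been seen, H4 had the most calls. In H4 7 of the 32 genes were called, 6 higher and 1 lower, where 6.94% of all genes were called. In C8 2 were called (H19 and Igf2, both higher; 2.97% of all genes) and in B9 1 (Magel2; 1.96%). In D1 3 were called (H19 and Rian lower, Igf2 higher; 2.26%), in H5 1 (H19; 1.75%) and in G2 0 (1.92%). In G2, 15 had an unadjusted p under 0.05 and 10 an adjusted p under 0.05, where 9.09% of all genes had the latter. Rian, the maternal noncoding RNA that carries small nucleolar RNAs, stood at 1.34, 1.18, 1.77 and 1.00 CPM in WT, at 0.415 and 0.45 CPM in D1, 0.972 and 1.16 CPM in G2 and 0.78 and 1.16 CPM in H5. D1 was below every other library (against WT, log2 -1.73 ± 0.28 SE, edgeR, adjusted p = 0.0024), while of its cluster neighbours Meg3 was also lower but short of 2-fold (log2 -0.56 ± 0.13 SE, edgeR, adjusted p = 0.014) and Mirg was not called.

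**Figure D4:**
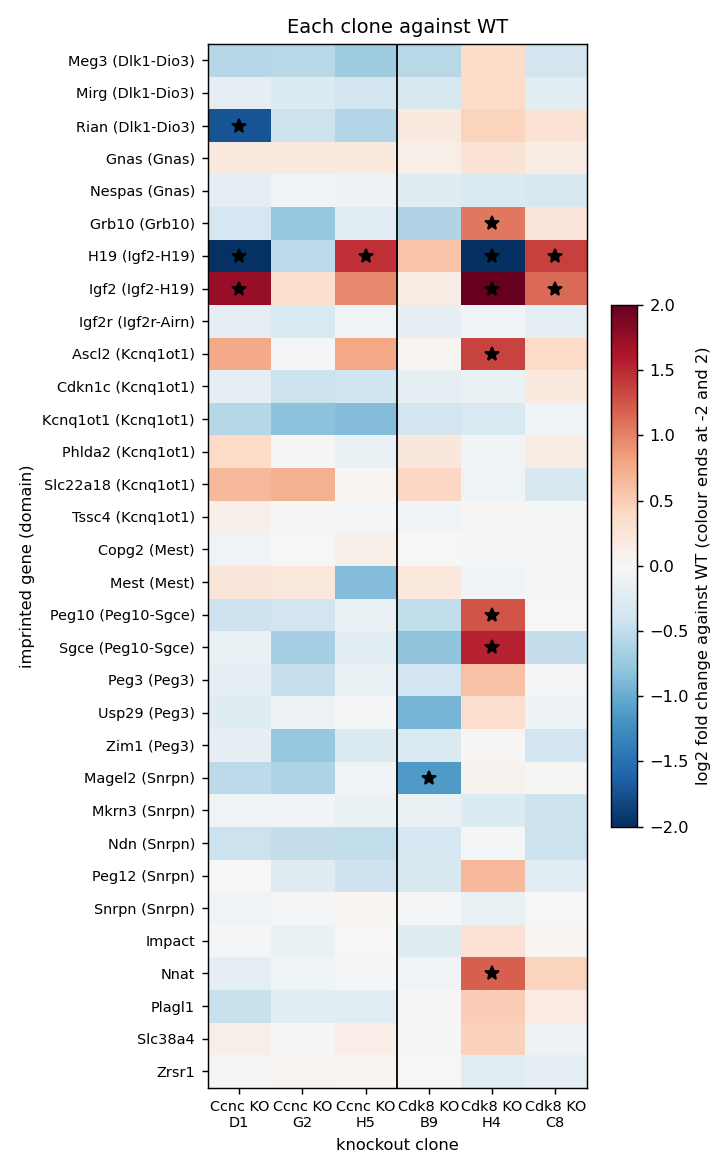
Log2 fold change of the 32 tested genes in each KO clone against WT (colours end at -2 and 2; stars mark calls at an adjusted p under 0.05 with a fold above 2), ordered by imprinted domain. The stars stand in 7 genes for H4, 3 for D1, 2 for C8, 1 each for H5 and B9 and none for G2, and the H19 row holds 4 of them.

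The genes were also counted by the parental allele they are known to be expressed from. Of the 18 paternally expressed genes tested, 9 were higher and 2 lower than WT in H4 at an adjusted p under 0.05 (edgeR, no fold limit), with a median of 0.32 on the log2 scale. Of the 13 maternally expressed genes, 4 were higher (Ascl2, Grb10, Meg3 and Mirg) and 1 lower (H19), with a median of 0.02. Over all genes 32.9% passed that threshold in H4, and the median was 0.01. In B9, 1 paternal gene was higher and 6 lower (median -0.24), and 1 maternal gene was higher and 4 lower (median -0.05), where 15.7% of all genes passed. In C8, 2 paternal genes were higher and 3 lower, and 2 maternal genes were higher and 3 lower, where 21.2% of all genes passed. No test of the difference between the classes was made.

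Other features of H4 moved with these levels, and part of them was shared with C8 and B9. Trophectoderm markers summed to 315 and 333 CPM in H4, against 67.9 to 108 CPM in B9 and C8 and 64.3 to 103 CPM in WT, and 6 of the 11 tested were called between clones. Of the 13 listed, 6 were above every WT library in H4. They were the keratins Krt8 (134 to 140 CPM, WT 6.63 to 9.47), Krt18 (103 to 106 CPM, WT 5.12 to 9.69) and Krt7 (9.39 to 9.77 CPM, WT 0.28 to 0.91), with Plet1 (3.55 to 5.31 CPM, WT 0.54 to 1.25), Hand1 (5.40 to 5.87 CPM, WT 2.95 to 4.56) and Gata3 (0.88 to 1.10 CPM, WT 0.15 to 0.56). Krt8, Krt18 and Plet1 were also above every WT library in B9 and C8, and Krt7 in C8. Krt8 stood at 16.6 to 18.0 CPM in B9 and 30.6 to 30.7 CPM in C8. Against WT, 3 of the 11 tested were called higher in B9, 5 in H4 and 5 in C8. Of all genes, 1.96%, 6.94% and 2.97% were called in these clones. In H4, Gata2 and Esx1 were below every WT library, Cdx2, Elf5, Eomes and Tfap2c overlapped WT, and Tpbpa was at 0 everywhere. Feeder fibroblast markers summed to 47.0 and 51.8 CPM in H4, 28.5 to 32.1 CPM in B9, 29.9 CPM in C8 and 24.8 to 26.2 CPM in WT. Among them Col1a1 was at 14.3 to 16.8 CPM (WT 1.48 to 2.38), Col1a2 at 2.40 to 3.31 CPM (WT 0.12 to 0.28) and Col3a1 at 0.62 to 0.68 CPM (WT 0 to 0.03), while Lum, Postn, Prrx1 and Dcn were under 0.3 CPM. Col1a1, Col1a2 and Col3a1 were also above every WT library in C8, at 3.76 to 4.07, 0.38 to 0.77 and 0.06 to 0.15 CPM. Col5a1 and Fbn1 were above every WT library in H4, while Pdgfrb, Twist1, Loxl1 and Thy1 overlapped WT there. Thy1 went another way, at 1.98 CPM in H4 and 1.82 to 3.01 CPM in WT. It was above every WT library in B9 (4.40 to 5.83 CPM) and C8 (3.25 to 4.39 CPM). In all, 5 of the 10 feeder fibroblast markers tested were called between clones. Of all genes, 6.05% were called between these clones. Primitive endoderm markers summed to 1698 and 1734 CPM in H4, within the 1698 to 2067 CPM of the 3 Cdk8 KO clones and above the 1050 to 1197 CPM of WT, with 4 of 17 called between clones. Pluripotency markers summed to 4795 and 5024 CPM in H4, 5518 to 5634 CPM in C8, 5914 to 6039 CPM in B9 and 6290 to 6733 CPM in WT. All 3 clones were thus below every WT library, H4 the most. In the Ccnc multiplex the KO clones were also below WT, at 5675 to 6303 CPM against 6416 to 6817 CPM. The part of these in the imprinted gene levels was not tested, and in bulk RNA a change in the share of cells of a type and a change in RNA per cell cannot be told apart. Chromosome medians in every line lay between -0.03 and 0.09 on the log2 scale against WT DMSO, and with them removed the same number of imprinted genes, 2 and 9, was called.

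None of the 32 genes was called for genotype. Between all KO and WT libraries, 0 of the 32 genes were called in the Ccnc KO (edgeR; 13 at an unadjusted p under 0.05; 1 with DESeq2), where 1.94% of all genes were called, and 0 in the Cdk8 KO (3 at an unadjusted p under 0.05; 0 with DESeq2), where 1.05% were. In the Ccnc KO, 6 of the 32 genes had an adjusted p under 0.05 below the fold limit (12.3% of all genes did). The most marked were Meg3, a maternal noncoding RNA, with log2 -0.65 ± 0.10 (SE, edgeR, adjusted p = 0.00070), and Ndn, with -0.43 ± 0.09 (edgeR, adjusted p = 0.0051). Meg3 stood at 10.6, 9.01, 8.34 and 5.28 CPM in WT, at 6.08 and 5.82 CPM in D1, 6.35 and 5.60 CPM in G2 and 6.04 and 4.73 CPM in H5. The KO clones lay together under each treatment, and the ATRi library of WT replicate 2 fell among them. Ndn in WT was at 15.3 to 18.9 CPM and in the Ccnc KO clones at 11.5 to 13.5 CPM, with no overlap. Mirg, Peg10 and Cdkn1c were also lower, by log2 -0.29, -0.30 and -0.34, and Gnas, the G protein subunit, higher by 0.20 (edgeR, adjusted p between 0.013 and 0.039). Primitive endoderm markers moved with the Ccnc genotype, 10 of the 17 tested being called higher, with sums of 1400 to 1595 CPM in the KO clones and 1040 to 1201 CPM in WT, and so did 5 of 12 trophectoderm markers. The part of these in the values above was not tested.

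Inhibition of ATR for 4 h moved few of the genes. With the Ccnc KO 2 of the 32 were called (edgeR, adjusted p under 0.05, no fold limit), where 1.11% of all genes were, and with the Cdk8 KO 0 (2 at an unadjusted p under 0.05; 0 with DESeq2), where 0.0855% were. Peg3 rose by 0.53 ± 0.08 in the Ccnc multiplex (log2, SE, edgeR, adjusted p = 0.0071) and was higher under ATRi in 5 of 5 pairs of libraries of a line, from 81.2 to 122 CPM in WT replicate 1, 84.3 to 121 in replicate 2, 77.2 to 101 in D1, 57.3 to 92.3 in G2 and 76.5 to 108 in H5. The Cdk8 multiplex gave 0.51 ± 0.22 (edgeR, adjusted p = 0.41) and 5 of 5 pairs in the same direction, with the WT pairs shared. Mirg, the maternal host of many microRNAs, fell by 0.45 ± 0.08 in the Ccnc multiplex (edgeR, adjusted p = 0.014), from 52.7 to 38.1 CPM in WT replicate 1, 49.2 to 29.6 in D1, 41.0 to 31.1 in G2 and 36.4 to 31.0 in H5, while WT replicate 2 went the other way, from 49.7 to 67.9 CPM. With that library included, the Mirg call was lost (log2 -0.26, edgeR, adjusted p = 0.53). Without WT replicate 1 both calls were lost (adjusted p = 0.11 for Peg3 and 0.14 for Mirg by edgeR), and without G2 that of Mirg was (adjusted p = 0.11).

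With the line as a block, which sets each ATRi library against the DMSO library of its own clone, 4 of the 32 genes were called in the Ccnc multiplex (2.43% of all genes) and 4 in the Cdk8 multiplex (11.3% of all genes). In both, Peg3 rose (0.54 ± 0.06 and 0.51 ± 0.04, log2, SE, edgeR, adjusted p = 0.0011 and 6.53e-06) and Mirg fell (-0.46 ± 0.08 and -0.26 ± 0.04, edgeR, adjusted p = 0.013 and 0.0013). The others were for the Ccnc multiplex Peg10 and Plagl1, a zinc finger growth regulator (0.32 ± 0.07 and 0.62 ± 0.13, edgeR, adjusted p = 0.040 and 0.032) and Cdkn1c and Meg3 in the Cdk8 multiplex (0.38 ± 0.07 and -0.32 ± 0.08, edgeR, adjusted p = 0.0049 and 0.014). Cdkn1c was higher under ATRi in 5 of 5 pairs of each multiplex, and Meg3 lower in 5 of 5. Whether the response to ATRi differed between KO and WT was tested as an interaction, with 0 of 32 called in each multiplex (2 and 1 at an unadjusted p under 0.05; 0 with DESeq2), where 0% of all genes were.

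**Figure D5:**
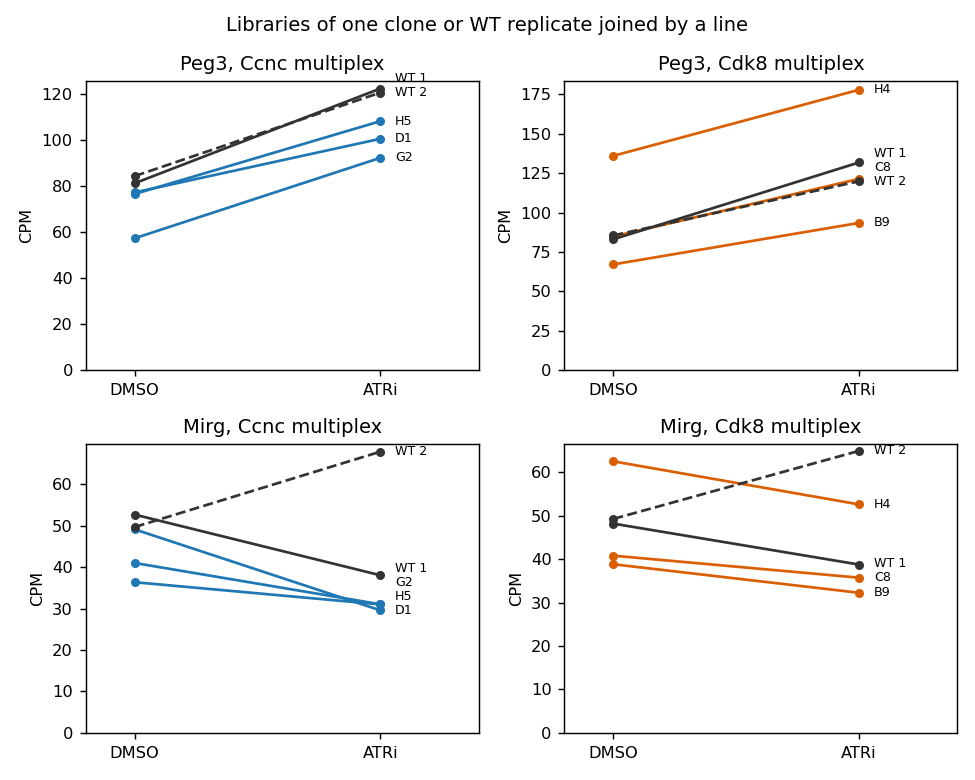
Peg3 and Mirg in CPM (linear axes from 0) under DMSO and ATRi, each line joining the 2 libraries of a WT replicate (grey, replicate 2 dashed) or KO clone (colour). Every Peg3 line rises, and every Mirg line falls except that of WT replicate 2.

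The remaining genes were called in neither clone comparison. Igf2r, the receptor that clears IGF2, stood between 48.6 and 74.2 CPM in all 20 libraries, and its antisense partner Airn had at most 4 counts. Zrsr1, a splicing factor gene in an intron of Commd1, lay between 40.7 and 53.6 CPM, and Nespas, antisense to Gnas, between 3.42 and 4.98 CPM. Gnas lay between 191 and 240 CPM. Slc38a4 and Impact were highest in H4, at 332 and 372 CPM and at 297 and 301 CPM, with WT of that multiplex at 234 to 265 and 197 to 260 CPM. Both were short of 2-fold. Plagl1 lay between 1.83 and 4.52 CPM, again with H4 highest.

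Of 30 regulators of imprinting, among them Zfp57, Trim28 and the DNA methyltransferase genes, 29 were tested in each multiplex and 0 were called for genotype in either (14 and 12 at an unadjusted p under 0.05, 10 and 2 at an adjusted p under 0.05, where 12.3% and 4.31% of all genes were). Dnmt3l, the cofactor of the de novo DNA methyltransferases, was lower in both, at 226 to 244 CPM in the Ccnc KO and 247 to 293 CPM in the Cdk8 KO, with WT at 366 to 405 CPM over both multiplexes and no overlap (log2 -0.71 ± 0.05 and -0.56 ± 0.06 SE, edgeR, adjusted p = 9.60e-07 and 0.0025). Between clones 0 were called in the Ccnc KO (3 at an unadjusted p under 0.05) and 1 of 29 in the Cdk8 KO, where 0.215% and 6.05% of all genes were. This was Aff3, an elongation factor subunit that binds imprinting control regions, with 1.19 between H4 and B9 (log2, edgeR, adjusted p = 0.00033). With no fold limit, 21 of the 29 had an adjusted p under 0.05 between the Cdk8 KO clones, where 30.1% of all genes did. Among these, Zfp57 differed by 0.39, with B9 highest and H4 lowest (edgeR, adjusted p = 4.93e-05), and by 0.10 between the Ccnc KO clones. Trim28 differed by 0.38 with the same order (edgeR, adjusted p = 3.59e-06).

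Of 50 further imprinted genes, 34 were tested beside the Ccnc KO and 37 beside the Cdk8 KO. In the genotype effect Dio3, the deiodinase of the Dlk1-Dio3 domain, was called in the Ccnc KO (1.50 ± 0.22, log2, SE, edgeR, adjusted p = 0.00060). That is 1 of the 34, where 1.94% of all genes were called. Dio3 was scarce, at 0.44 to 0.83 CPM (17 to 30 counts) in WT and 1.09 to 1.69 CPM (43 to 65 counts) in the Ccnc KO. In the Cdk8 KO 0 genes were called (8 at an unadjusted p under 0.05), where 1.05% of all genes were. Between clones 0 were called in the Ccnc KO (4 at an unadjusted p under 0.05) and 7 in the Cdk8 KO, where 0.215% and 6.05% of all genes were. The largest was Zfp264, a zinc finger gene beside Usp29, which was almost absent from H4, with 2 and 6 counts (0.052 and 0.13 CPM) where WT had 0.94 to 1.61 CPM (3.37 between B9 and H4, log2, edgeR, adjusted p = 7.50e-05). Zfp264 was also called lower against WT in C8, at 0.41 and 0.39 CPM (log2 -1.72 ± 0.31 SE, edgeR, adjusted p = 0.00097). In the Ccnc multiplex it stood at 0.51 to 0.77 CPM in the KO clones and 1.19 to 1.41 CPM in WT. There H5 was called lower against WT (log2 -1.24 ± 0.26 SE, edgeR, adjusted p = 0.010). Dcn, a proteoglycan that is also in the fibroblast list, had 10 and 9 counts in H4 and 5 or fewer in WT of the Cdk8 multiplex (3.31 between H4 and B9, log2, edgeR, adjusted p = 0.025). Sfmbt2, a Polycomb gene of the trophoblast, was at 117 and 106 CPM in H4, 34.4 and 30.7 CPM in B9 and 63.3 to 74.7 CPM in WT. The difference between H4 and B9 was 1.78 (log2, edgeR, adjusted p = 1.63e-11). Against WT, Sfmbt2 was called lower in B9 (log2 -1.07 ± 0.05 SE, edgeR, adjusted p = 6.13e-09). It was also called lower in G2 of the Ccnc KO (log2 -1.01 ± 0.10 SE, edgeR, adjusted p = 3.64e-05). The other clones except H4 were below every WT library of their multiplex without a call. C8 stood at 57.9 and 56.6 CPM, D1 at 54.1 and 45.7 CPM and H5 at 40.5 and 42.4 CPM. WT of the Ccnc multiplex stood at 62.6 to 76.7 CPM.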

How the data were processed

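RNA-seq was carried out on 2 WT replicates, 3 Ccnc KO clones and 3 Cdk8 KO clones under 2 treatments. Per the labels and the study's methods, the authors trimmed reads (Trimmomatic 0.38), aligned them to GRCm38.p6 (HISAT2 2.1.0), and deposited raw counts per gene (featureCounts 2.0.1, strand-specific, reads marked as duplicates ignored), along with regularized log2 tables that were not used here. Discarding duplicates can compress the most abundant genes. Lanes of a library were summed.

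Counts were tested in R 4.3.3 with edgeR 4.0.16 (TMM, filterByExpr, quasi-likelihood F test, Benjamini-Hochberg over all genes tested), separately in each multiplex, with WT replicate 2 under ATRi left out as the study did. Genotype was fitted with treatment and with no term for clone. The SE and p-values of a genotype effect therefore take the DMSO and ATRi libraries of a clone as separate, and are not measures over clones. Clone differences were an F test over the 3 KO clones with treatment fitted, and the value given is the highest minus the lowest clone. Calls needed an adjusted p under 0.05 and, except for ATRi and the interaction, a fold above 2. DESeq2 1.42.0 and limma 3.58.1 served as alternatives. The edgeR tests of clone differences, genotype, ATRi and interaction were run on simulated counts with known changes. The tests of each clone against WT and the alternatives were not. P-values measure the spread between these libraries, and for clone differences between libraries of the same clone.

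A DMSO and an ATRi library are paired because they come from the same clone. Their deviations from the KO mean correlated at 0.233, -0.04 and 0.280 in D1, G2 and H5 and at 0.850, 0.909 and 0.558 in B9, H4 and C8. Between different clones the values ran from -0.398 to 0.254 in the Ccnc KO and from -0.802 to 0.153 in the Cdk8 KO. G2 under DMSO correlated more with D1 under ATRi (0.179) than with its own ATRi library. The members, lists and tests were chosen with earlier results of these data known. Values in every library are given for genes called in a genotype effect or clone difference and for partners in their cluster. From the longer lists, the 3 largest calls in each knockout are named, and Dnmt3l, Zfp57, Trim28, Rian, Meg3 and the genes moved by ATRi were named after their values were seen.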

Additional observations from a re-analysis of the deposited data

Results flagged for a closer look

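Mkrn3 in the Ccnc multiplex and Zim1 in the Cdk8 multiplex drew attention because both WT pairs moved one way under ATRi and all 3 KO clones the other, counting WT replicate 2. For Mkrn3 the ATRi change was -0.35 and -0.22 in WT and 0.34, 0.46 and 0.03 in the KO clones (log2), and the fitted difference was 0.55. In the Cdk8 multiplex the same WT libraries gave 0.02 and -0.35, so the first WT pair did not keep its direction. For Zim1 it was 0.64 and 0.11 in WT and -0.51, -0.38 and -0.19 in the KO clones, and the fitted difference was -0.93, at about 1 CPM. In the Ccnc multiplex the same WT libraries gave -0.27 and -0.26 for Zim1, the opposite direction. Neither difference was called by edgeR's interaction test.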

How the results depend on the processing

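Of 84 alternative counts of called imprinted genes, 67 stayed within 1.5 times the main count, and 121 of 141 single-gene alternatives kept direction and call, with 0 reversed. For the Ccnc genotype effect the count of 0 became 1 with DESeq2 and 1 with no expression filter (Igf2 in both), and 0 to 1 on leaving out a line. For clone differences in the Ccnc KO, 2 became 4 with no expression filter and 1 to 2 on leaving out a line. For the Ccnc ATRi effect, 2 became 4 with DESeq2, 3 with no expression filter, 1 with WT replicate 2 under ATRi included, 4 with the clone as a replicate block, and 0 to 2 on leaving out a line. For Cdk8, the genotype count was 0 to 1 and the clone difference count 1 to 9 on leaving out a line, the clone difference count was 21 by adjusted p alone (chosen after seeing the data), and the ATRi count was 4 with the replicate block. The block changed no other call. The cause was not tested. Over all genes, calls between Cdk8 KO clones were 1132 with edgeR and 728 with DESeq2, and ATRi calls were 206 and 651 in the Ccnc multiplex and 16 and 378 in the Cdk8 multiplex. The interaction without WT replicate 1 was not run, as 1 WT library was left. Igf2, Rian, Usp29, Ascl2 and Magel2 lay near 1 CPM or lower, where counts limit precision.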
